A study of Mus musculus with 12 samples.

Results

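The 10 genes described here encode subunits of AP-1, a transcription factor built from pairs of related proteins. They were taken by gene symbol from 27179 mouse gene IDs: Fos, Fosb, Fosl1 and Fosl2 of the FOS family, Jun, Junb and Jund of the JUN family, and Atf3, Batf and Batf3 of the ATF and BATF branch.

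AP-1 proteins bind DNA as dimers through a basic region followed by a leucine zipper, a fold called bZIP. JUN proteins pair with one another, with FOS proteins or with ATF and BATF proteins, whereas FOS proteins need a partner from outside their own family. IL-1 reaches these genes through MAP kinases such as JNK and p38, which act beside the NF-κB pathway. Fos and Jun are classic immediate early genes, transcribed within minutes of a stimulus, and Fos mRNA is known for its short life.

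RNA came from NIH3T3 cells, an immortalized line of mouse embryonic fibroblasts, without a RelA gene of their own (RelA-/-), with a fusion of RelA and the red fluorescent protein DsRed instead. RelA, or p65, is a subunit of NF-κB. All cells of the series shared this genotype, and whether they were 1 clone is not given in the sources used here. The cells had been loaded into microfluidic devices and exposed for 2 h to 0.2 ng/mL IL-1β, and their lysates were reverse transcribed and pre-amplified over 10 cycles without RNA extraction.

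The series names 12 samples in 4 groups of 3, but only the 3 libraries of the IL-1 group had counts of their own. All 9 tables of the LPS, PAM and media groups matched that of IL-1 replicate 3 in every byte, header included, and were left out. The samples of those 9 tables were not analysed here, so the levels below are those after IL-1, with no untreated level beside them and no test between groups. The 3 libraries held 17254518, 18091073 and 18578859 counts. Between any pair of them, 1.01% to 1.10% of the gene IDs that averaged 10 counts or more had the same count. The labels do not say whether the 3 came from separate cultures, so each SD below measures the spread between these libraries, which may be technical.

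The fibroblast label was checked against marker genes. All 8 fibroblast markers were detected, at a sum of 7857 to 8213 CPM (counts per 1000000 counts of the library). Detected means 1 CPM or more in all 3 libraries, which 51.1% of all protein-coding genes reached. No epithelial (0 of 5), endothelial (0 of 4) or lymphocyte and dendritic cell marker (0 of 7) was detected. Of 6 macrophage markers 3 were detected, near the 51.1% of all protein-coding genes. The macrophage list summed to 10.6 to 17.5 CPM, and Ptprc, the pan-leukocyte antigen CD45, had 3, 0 and 6 counts.

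Detection was set at 1 CPM in all 3 libraries. Of the 10 subunits, 7 were detected, among 41.3% of all gene IDs (11224 of 27179) and 51.1% of protein-coding genes (10724 of 20983). Together the 10 made up 0.0445% ± 0.00188 (SD, n = 3) of all counts. In a bulk lysate, fewer expressing cells and less RNA per cell cannot be told apart. Of the 7 detected subunits, Fosl2, Junb and Fosl1 were high, Jun, Jund and Atf3 intermediate, and Fos lay just above the detection limit. Fosb and Batf3 did not reach the limit in every library, and Batf had no count.

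Promoter sequence is shown first for the subunits in whose 250 bases upstream of the start a motif of interest was found, since their transcript levels lay at opposite ends of the family. Sequences are those of RefSeq on GRCm38.p6, which held a promoter for 9 of the 10 genes (not Fosl1). A match to the NF-κB motif (κB), searched on both strands, was present in 3 of the 9: Fosl2, Fos and Fosb. It was present in 3.75% of 27025 promoters of the same length. The upstream windows of the 3 were richer in G and C (64.4%, 58.4% and 68.8%) than the median promoter (52.0%), and the part of base composition in the matches was not tested. The stretches below run 5′ to 3′ on the strand of the gene, with the match in capitals. In Fosl2 the capitals hold 2 overlapping matches, 1 on each strand.

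Fosl2, chr5:32136272-32136331, plus strand: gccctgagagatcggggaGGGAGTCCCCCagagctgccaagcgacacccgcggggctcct
Fos, chr12:85473650-85473709, plus strand: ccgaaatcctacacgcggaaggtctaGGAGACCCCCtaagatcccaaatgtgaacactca
Fosb, chr7:19310200-19310259, minus strand: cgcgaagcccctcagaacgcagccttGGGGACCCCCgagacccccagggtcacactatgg

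The matches began 182, 214 and 188 bases upstream of the RefSeq start of Fosl2, Fos and Fosb. The motif was thus found before the most abundant FOS family gene by CPM and before both of the least abundant. Since Fosl1 had no promoter to search, every FOS family gene searched had a match. No JUN, ATF or BATF gene here had one. A match of letters is not a site shown to be bound.

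Other motifs marked the bases next to the starts of Fos and Jun, shown here because Fos and Jun are classic immediate early genes. In Fos, the capitals are a GC box (GGGCGG, read on the opposite strand as CCGCCC), the cAMP response element core TGACGT and the TATA box motif TATAAA. In Jun, they are CCAAT and TGACATCA, the variant AP-1 element through which Jun is known to respond to its own product.

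Fos, chr12:85473805-85473874, plus strand: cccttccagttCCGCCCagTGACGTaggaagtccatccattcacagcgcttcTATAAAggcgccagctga
Jun, chr4:95052238-95052307, minus strand: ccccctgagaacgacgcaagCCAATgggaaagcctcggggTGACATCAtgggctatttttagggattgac

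TGACATCA occurred in 1 of the 9 promoters, that of Jun, and in 3.02% of all promoters. TATAAA occurred in 1 of the 9, that of Fos, against 13.0% of all. TGACGT was found in 3 of the 9 (Fos, Atf3 and Batf, 6.56% of all promoters), GGGCGG in 7 (32.9%) and CCAAT in 2, Jun and Junb (34.5%). The canonical AP-1 element TGANTCA (6.87% of all), the full cAMP response element TGACGTCA, which contains TGACGT (1.62%), and the serum response motif CArG (1.40%) had no match in these 9 windows. All motifs were searched on both strands, and no match says only that the letters were not in this window. The GENCODE annotation places some starts elsewhere, such as Jund (70698949, against 70697739 in RefSeq), Fosl2 (32135801, against 32136472) and Atf3 (191218039, against 191183333). Windows before those starts were not searched.

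**Figure D1:**
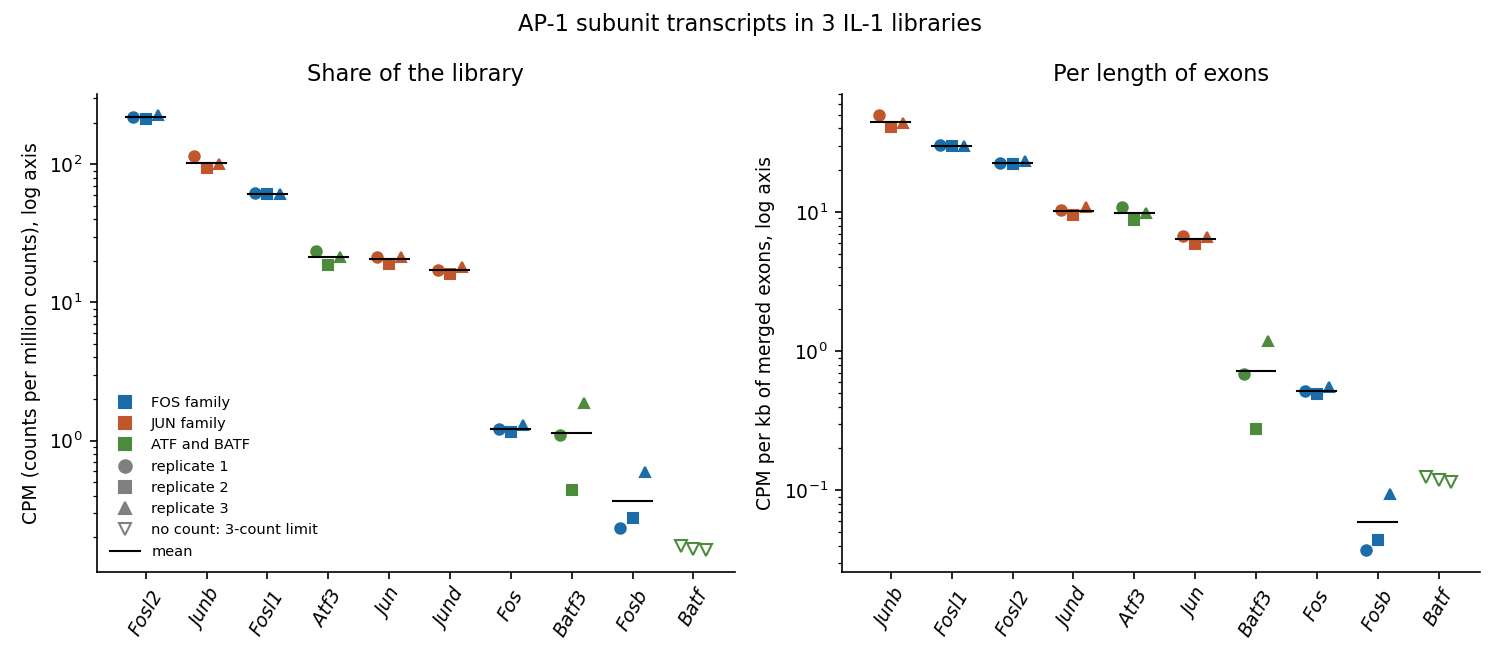
AP-1 subunit transcripts in the 3 IL-1 libraries as CPM (left) and as CPM per kb of merged exons (right), both on log axes and each ordered by its mean. Points are libraries, black lines are means, colours are families, and open triangles give the level that 3 counts would reach for Batf, which had no count. Fosl2, Junb and Fosl1 sit above Jun, Jund and Atf3 in every library on both axes, and Fos, Fosb and Batf3 lie below.

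The FOS family was carried by its 2 FOS-like genes, Fosl2 and Fosl1, and Fos itself was near the detection limit. Fosl2 (FRA2; chr5:32136472-32157840, plus strand) encodes a FOS-related protein without the strong transactivation domain of FOS. It had 3788, 3866 and 4203 counts, or 219.5, 213.7 and 226.2 CPM, with a mean of 219.8 ± 6.27 CPM (SD, n = 3). Its mean stood at percentile 92.2 of detected genes by CPM and 76.8 by CPM per kb of merged exons.

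Fosl1 (FRA1; chr19:5447698-5455938, plus strand) encodes the other FOS-related protein, known in fibroblasts and tumour cells for its part in migration. It had 1067, 1094 and 1136 counts, or 61.8, 60.5 and 61.1 CPM (61.2 ± 0.684 CPM, SD, n = 3). The 3 libraries were nearly level, and each lay below every Fosl2 value in CPM.

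Fos (chr12:85473890-85477274, plus strand), the cellular homologue of a viral oncogene, had 21, 21 and 24 counts. These were 1.22, 1.16 and 1.29 CPM, with a mean of 1.22 ± 0.0657 CPM (SD, n = 3). The exact 95% Poisson interval of its pooled counts ran from 0.947 to 1.56 CPM and covers counting error only. Fos stood at percentile 0.254 of detected genes by CPM and 5.04 by CPM per kb of merged exons.

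Fosb (chr7:19302696-19310118, minus strand), the nearest relative of Fos, had 4, 5 and 11 counts, or 0.232, 0.276 and 0.592 CPM. All 3 libraries lay below the lowest Fos value. The pooled interval of Fosb (0.227 to 0.573 CPM) did not reach that of Fos.

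Divided by the length of the gene's merged exons, the FOS levels changed order. Fosl1 averaged 30.1 ± 0.336 CPM per kb and Fosl2 22.7 ± 0.648 CPM per kb (SD, n = 3), over 2033 and 9680 bases. On this scale Fosl1 lay above Fosl2 in all 3 libraries, with no overlap. This order did not hold for other lengths. Per kb of coding sequence Fosl2 was 3.01 ± 0.0766 times Fosl1. Per kb of the longest transcript their ranges overlapped (33.6 ± 0.959 for Fosl2 and 32.8 ± 0.367 for Fosl1), with Fosl2 slightly above Fosl1 within each library. Fos averaged 0.520 ± 0.0279 CPM per kb and Fosb 0.0587 ± 0.0315 CPM per kb. Within single libraries, the level of Fosl2 per kb was 43.8, 44.7 and 42.6 times that of Fos, and Fosl1 per kb was 58.8, 60.3 and 54.8 times Fos. Of the summed FOS family level per kb of merged exons, Fosl1 held 56.4% ± 0.666, Fosl2 42.5% ± 0.573 and Fos 0.974%. By the longest transcript, Fosl2 held 50.1% ± 0.573 and Fosl1 48.9% ± 0.676.

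Fosl1 overlaps another gene. Of its 2033 merged exon bases, 1163 (57.2%) are shared with Ccdc85b on the opposite strand, which had 2256, 2337 and 2519 counts (132 ± 3.34 CPM). The library kit does not mark strand, and the counter's treatment of overlapping genes is not given in the sources used here. How many Fosl1 fragments were lost to, or gained from, Ccdc85b cannot be told apart. Dividing all Fosl1 counts by the 870 unshared bases alone would put Fosl1 at 70.3 ± 0.786 CPM per kb.

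The JUN family was led by Junb in every library. Junb (chr8:84976909-84978748, minus strand) encodes a JUN protein that activates transcription more weakly than JUN and can oppose it. It had 1971, 1710 and 1853 counts, or 114.2, 94.5 and 99.7 CPM (102.8 ± 10.2 CPM, SD, n = 3). Replicate 1 was highest and replicate 2 lowest. Per kb of merged exons it read 49.6, 41.1 and 43.3 (44.7 ± 4.44 CPM per kb).

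Jun (chr4:95049036-95052222, minus strand), a gene of 1 exon, encodes the strongest activator among the JUN proteins and the main nuclear substrate of JNK. It had 370, 341 and 395 counts, or 21.4, 18.8 and 21.3 CPM (20.5 ± 1.45 CPM, SD, n = 3). Its level per kb was 6.43 ± 0.454, close to the median detected gene at 6.75 CPM per kb (percentile 49.1, and 38.9 by CPM).

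Jund (chr8:70697739-70700616, plus strand) encodes a JUN protein known for a level that varies little with growth or stimulation. It had 296, 289 and 337 counts, or 17.2, 16.0 and 18.1 CPM (17.1 ± 1.08 CPM, SD, n = 3). In CPM each library's Jund lay below all 3 Jun values. Per kb the order turned, with Jund at 10.2 ± 0.650 CPM per kb over the 1668 bases of its GENCODE exon.

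That turn depended on the gene model of Jund. RefSeq gives it a span of 2878 bases from start to end, over which it read 5.94 ± 0.376 CPM per kb. Its range then overlapped that of Jun, which lay above Jund within each library. In addition, 877 bases (52.6%) of the GENCODE exon are shared with Gm11175, an antisense gene, and reads of the pair cannot be told apart without strand. Jun shares 232 of its 3189 bases with the antisense gene Junos, and Junb shares 173 of 2301 bases with Prdx2 on the opposite strand. Prdx2 had 9783, 12192 and 11822 counts (625.7 ± 54.2 CPM, SD, n = 3), above Junb in each library, and its part in the Junb reads was not tested.

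Junb exceeded its relatives on each measure of length tried. Its level per kb of merged exons was 7.38, 6.95 and 6.50 times that of Jun and 4.83, 4.29 and 3.99 times that of Jund in the 3 libraries. Junb held 72.8% ± 1.65 of the summed JUN family level per kb, Jund 16.7% ± 1.23 and Jun 10.5% ± 0.433 (SD, n = 3).

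Among the ATF and BATF genes, only Atf3 was detected. Atf3 (chr1:191170296-191183333, minus strand) encodes a stress-induced bZIP protein that pairs with JUN proteins and often represses inflammatory genes. It had 404, 339 and 396 counts, or 23.4, 18.7 and 21.3 CPM (21.2 ± 2.34 CPM, SD, n = 3), and its range in CPM overlapped that of Jun. Per kb it stood at 9.82 ± 1.09, above Jun in each library and overlapping Jund.

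Batf3 (chr1:191098414-191108943, plus strand), best known for its role in dendritic cells, had 19, 8 and 35 counts. These were 1.10, 0.442 and 1.88 CPM, so that 2 of the 3 libraries reached 1 CPM and the highest stood 4.26 times above the lowest. Its CV (the SD as a percentage of the mean) was 63.2%, against 22.1% from counting alone. Of the lymphocyte and dendritic cell markers, the list sum ran from 0.719 to 2.67 CPM, and its part in the Batf3 reads was not tested.

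Batf (chr12:85686720-85709087, plus strand), which acts with JUN proteins in lymphocytes, had 0 counts in each library. A count of 0 allows 0.161 to 0.174 CPM in a single library and 0.0556 CPM in the 3 together. Cd3e, a T cell marker, also had no count.

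Some of the members are neighbours in the genome. Fos, Jdp2 and Batf follow one another on chromosome 12, with 121.4 kb between Fos and Jdp2 and 46.8 kb between Jdp2 and Batf. Jdp2, which encodes a JUN dimerization partner that represses AP-1, read 17.1 ± 3.54 CPM (SD, n = 3) between Fos at 1.22 CPM and Batf at 0. On chromosome 1, Batf3 and Atf3 lie 61.4 kb apart with only the protein-coding gene Fam71a between them, at 1.14 ± 0.722 and 21.2 ± 2.34 CPM.

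The composition of the whole AP-1 transcript pool was then taken as shares of the summed CPM per kb of all 10 genes. Junb held 35.6% ± 1.77, Fosl1 24.1% ± 1.09 and Fosl2 18.2% ± 0.833 (SD, n = 3), and no other subunit held more than 8.18% (Jund). Atf3 held 7.82% ± 0.433, Jun 5.13% ± 0.141 and Fos 0.416% ± 0.0218. By family, JUN genes held 50.5%, 48.0% and 48.3% in the 3 libraries and FOS genes 40.7%, 44.4% and 42.9%. The ATF and BATF genes held 8.77%, 7.61% and 8.79%. JUN transcripts outnumbered FOS transcripts in every library on this scale, at a FOS to JUN ratio of 0.805, 0.926 and 0.888 (0.873 ± 0.0618).

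**Figure D2:**
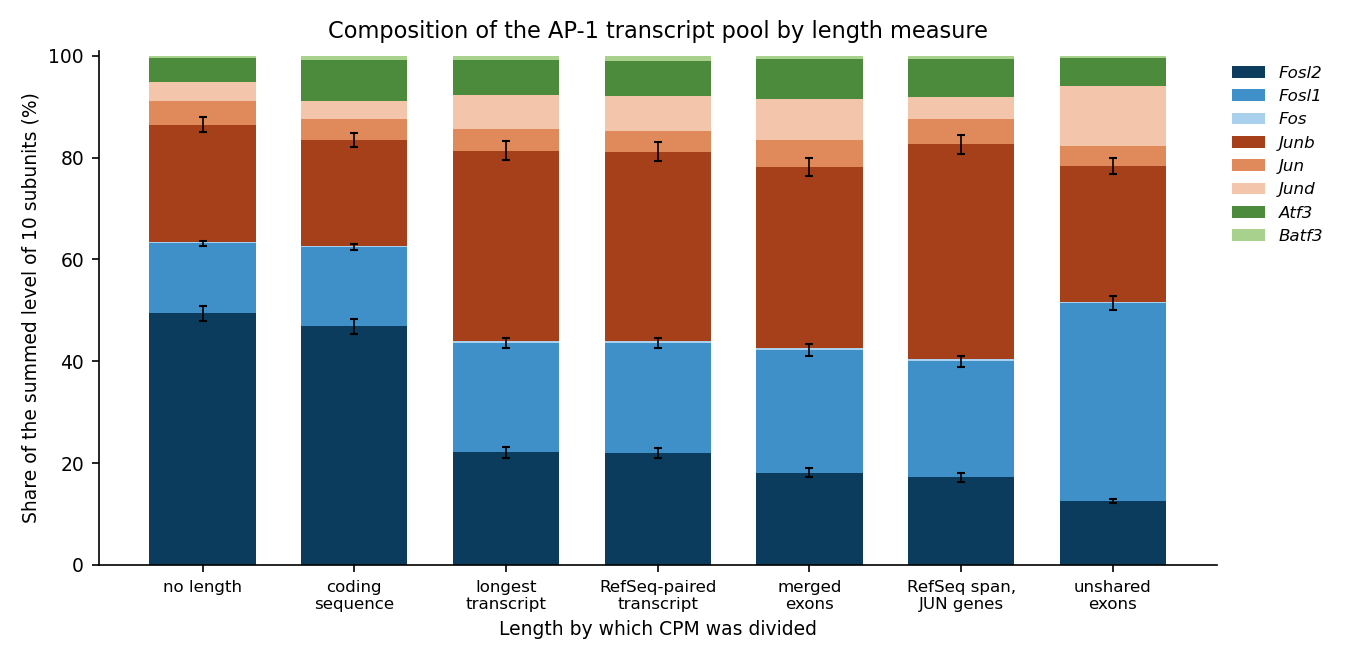
Mean share of each subunit in the summed level of the 10 AP-1 genes (vertical axis, percent, n = 3 libraries) under 7 ways of dividing CPM by length. Error bars are SDs of the shares of Fosl2, Fosl1 and Junb, drawn at the top of each segment, and Fosb and Batf are too low or absent to draw. Fosl2, Fosl1 and Junb fill most of each bar, whereas the largest of the 3 changes with the length used.

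Which subunit came first depended on the length. Fosl2 has 9680 merged exon bases but 978 coding bases, and CPM without length and CPM per kb of coding sequence put it first, at 49.4% ± 1.47 and 46.9% ± 1.46 of the sum. On both of these scales FOS genes outweighed JUN genes, with ratios of 2.02 and 2.21. Junb came first on 4 of the 7 scales, Fosl2 on 2 and Fosl1 on 1, that of unshared exons. The longest transcript and the longest RefSeq-paired transcript, both among the 4 of Junb, have the same length for every subunit except Batf3 (1110 and 801 bases) and are close to a single measure. Another of the 4, the RefSeq span, changed the length of the JUN genes only. It gave Junb 1840 in place of 2301 bases, which raises Junb against the unchanged FOS genes.

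The levels held in 3 tiers on all 7 scales. Fosl2, Junb and Fosl1 were always the first 3, and Jun, Jund and Atf3 always the next 3, by mean. The lowest value of any high subunit exceeded the highest value of any intermediate one on 6 of the 7 scales. The exception was unshared exons, where the range of Jund (21.6 ± 1.37 CPM per kb) overlapped that of Fosl2 (22.7 ± 0.648 CPM per kb). Within each library Fosl2 still lay above Jund. This scale divides all counts of a gene by fewer bases, so any reads from shared bases stay in the count. The lowest intermediate value exceeded the highest value of Fos, Fosb, Batf3 and Batf on all 7 scales, by 2.51 to 8.48 times. These tiers were drawn after the values had been seen, and no test was made of them.

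Neighbours whose ranges overlapped between libraries were few. On the scale of merged exons, the order was Junb, Fosl1, Fosl2, Jund, Atf3, Jun, Batf3, Fos, Fosb and Batf. Only Jund and Atf3, and Batf3 and Fos, overlapped between libraries in that order. In CPM without length, Atf3 and Jun overlapped, as did Fos and Batf3, and Batf3 and Fosb. Of these, Batf3 still lay above Fosb within each library.

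The spread of the detected subunits between libraries was near that of other genes of like level. Their median CV was 6.34%, beside 8.56% for all 11224 detected genes and 6.95% for the 6193 genes with means between 20 and 250 CPM, a range that holds 5 of the 7 subunits (not Jund and Fos). Fosl1 varied by 1.12%, less than the 3.02% that counting alone gives at its level, and Fos by 5.37% against 21.3%. A CV at or below that of counting was found for these 2 of 7 subunits and for 18.7% of detected genes. Junb (9.93% against 2.33% from counting) and Atf3 (11.1% against 5.13%) spread the most among the detected subunits.

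**Figure D3:**
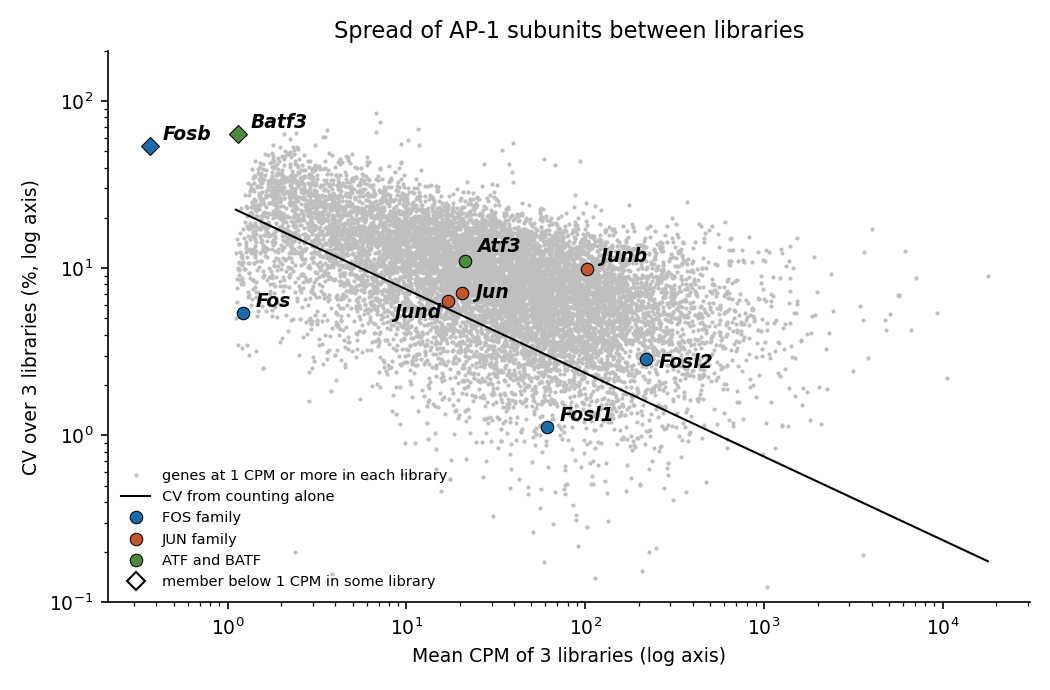
CV over the 3 libraries (percent, log axis) against mean CPM (log axis) for the detected genes (grey), with the 9 AP-1 subunits that had counts in colour. The black line is the CV from counting alone, and a few genes below the lower edge are not drawn. Fosl1 and Fos lie below the line, Junb and Atf3 well above it, and Fosb and Batf3 (diamonds, below 1 CPM in some library) have CVs of 53.5% and 63.2%.

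All 7 detected subunits were lowest in replicate 2, as were 41.9% of the detected genes (4705 of 11224). Library scaling moves this count: with TMM or relative log expression factors, 5 of the 7 were lowest in replicate 2, beside 35.1% and 34.7% of detected genes. The median log2 ratio of replicate 2 to the mean of the other libraries was -0.14 for the 7 subunits and -0.04 for all detected genes.

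Other bZIP genes were read from 4 lists with 33 genes, of which 25 were detected, beside 51.1% of all protein-coding genes. All 43 genes, AP-1 included, were ranked by CPM per kb of merged exons. The lists do not hold every bZIP gene. Xbp1, at 213 CPM, was not among them, so the ranks hold within the 43 only. Junb ranked 6, Fosl1 9 and Fosl2 12. The 5 above Junb were Atf4 (395 CPM per kb), a regulator of the amino acid response, Cebpb (214 CPM per kb), a C/EBP factor of inflammation, Nfe2l2 (150 CPM per kb), the NRF2 factor of the oxidative stress response, Ddit3 (94.9 CPM per kb), the stress factor CHOP, and Cebpd (70.8 CPM per kb). By CPM without length, Fosl2 ranked 5, Junb 9 and Fosl1 13.

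**Figure D4:**
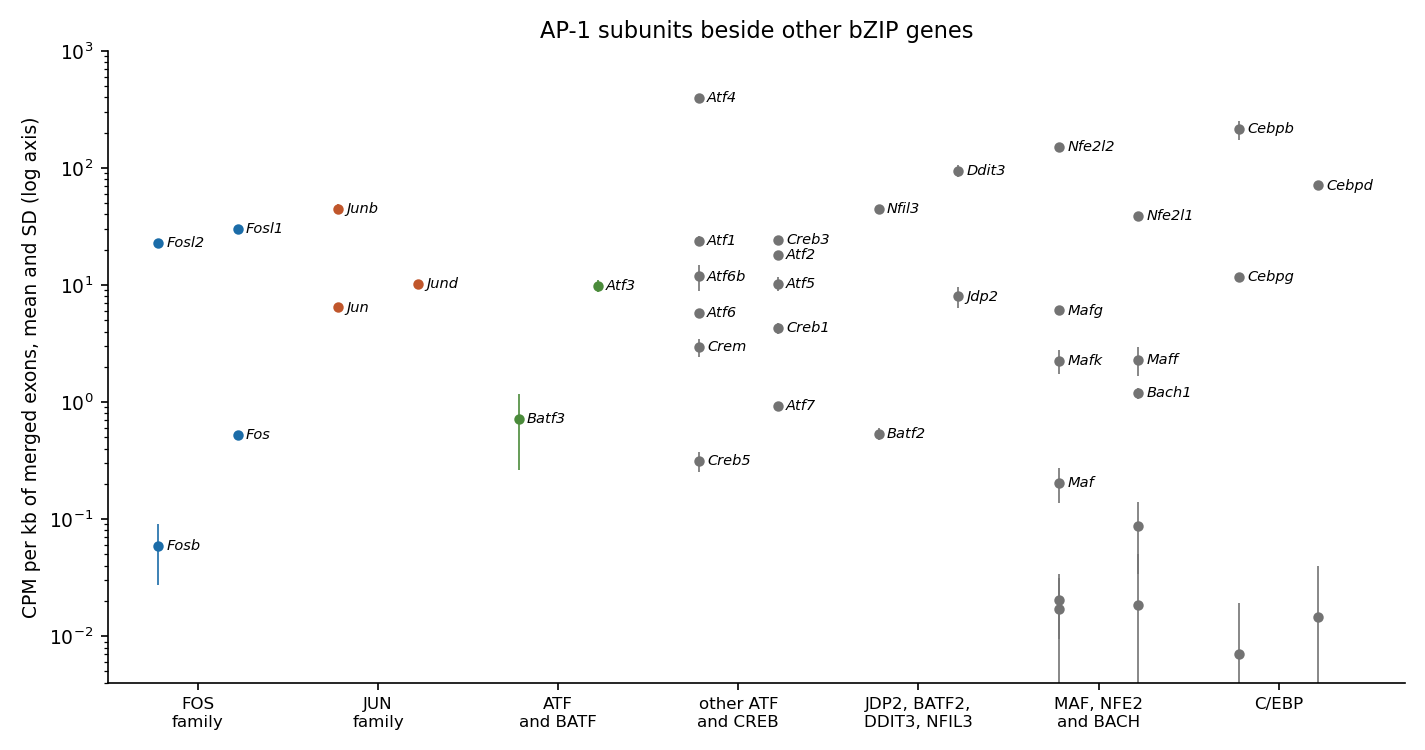
Mean level of bZIP genes in CPM per kb of merged exons (log axis), with SDs over 3 libraries, for the AP-1 families (coloured) and 4 lists of other bZIP genes (grey). Genes without a count are not drawn. Of the genes drawn, Atf4, Cebpb, Nfe2l2, Ddit3 and Cebpd lie above Junb, the highest AP-1 subunit on this scale.

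All 11 other ATF and CREB genes were detected, with Atf4 at 931.5 ± 39.8 CPM, Atf2 at 147 ± 5.54 CPM and Atf1 at 72.8 ± 6.93 CPM (SD, n = 3). ATF2 is the ATF protein that pairs with JUN at the Jun promoter. In CPM per kb, Atf2 (17.96) stood between Fosl2 and Jund. All 4 partners and repressors close to AP-1 were detected, led by Ddit3 (162 ± 18.6 CPM), Nfil3 (90.3 ± 4.42 CPM) and Jdp2. Of the MAF, NFE2 and BACH genes, 7 of 13 were detected, near the 51.1% of all protein-coding genes. They were led by Nfe2l2 (571 ± 27.9 CPM), Nfe2l1 (213 ± 6.82 CPM) and Mafg (34.0 ± 1.09 CPM). Mafa and Nrl, known from pancreatic islets and the retina, had no count. Of 5 C/EBP genes 3 were detected: Cebpb (321 ± 59.2 CPM), Cebpd (265 ± 22.0 CPM) and Cebpg (66.0 ± 2.58 CPM).

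Most of the listed kinases that act on AP-1 were detected, beside 51.1% of all protein-coding genes. Of the MAP kinases, 8 of 10 were, with Mapk9 (JNK2) at 72.6 ± 3.58 CPM and Mapk14 (p38α) at 59.96 ± 1.48 CPM (SD, n = 3). All 7 MAP kinase kinases were detected, led by Map2k3, a kinase of p38, at 285 ± 7.49 CPM, then Map2k2 (180 ± 6.74 CPM) and Map2k1 (177 ± 5.68 CPM). Transcript levels do not report kinase activity.

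Of 8 factors known to act on the Fos and Jun promoters, 7 were detected, beside 51.1% of all protein-coding genes. Elk3, an ETS factor of the serum response element, read 93.5 ± 10.1 CPM, Mef2a 24.0 ± 1.94 CPM and Srf, the factor that binds CArG boxes, 17.7 ± 2.42 CPM (SD, n = 3). The other, Mef2b, named because it alone was missed, had 18, 21 and 15 counts. All 10 genes for the turnover of AP-1 protein or mRNA were detected. Elavl1 (HuR, which stabilizes AU-rich mRNAs such as that of Fos) read 429 ± 11.3 CPM and Itch, a ubiquitin ligase for JUN proteins, 79.5 ± 8.89 CPM.

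Textbook AP-1 targets were detected in 18 of 21 cases, beside 51.1% of all protein-coding genes. They were led by the metalloproteinase inhibitor Timp1 (1124 ± 99.0 CPM), the haem oxygenase Hmox1 (1095 ± 65.2 CPM) and the hyaluronan receptor Cd44 (593 ± 15.1 CPM). The 3 targets that were not detected were genes of the collagenase group, Mmp1a, Mmp1b and Mmp13, at 0.110, 0.765 and 0.282 CPM, and they were named after their values had been seen. These lists give presence and level after IL-1 only, since no untreated library was at hand to compare them with.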

How the data were processed

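PolyA RNA libraries of 3 IL-1 samples (12 deposited samples, 9 of them with copied tables that were left out) were analysed. The authors deposited raw read counts per Entrez gene ID, made with CASAVA, STAR and featureCounts on mm10, per the submitters' processing notes. For versions, annotation, strand setting and reads with several alignments, nothing is given in the sources used here. The labels name no molecular identifiers, so counts are reads, and intervals and limits (exact Poisson, 95%, and 3 counts for a count of 0) cover counting error only.

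CPM used the total count of each library (17254518 to 18578859). Symbols were looked up by Entrez ID in RefSeq's GRCm38.p6 table (25275 of 27179 IDs, and IDs without a symbol held 2.14% ± 0.169 of counts). Exon lengths came from GENCODE M21 (known for 98.4% of detected genes). The calculation of CV was tested on data simulated only for genes with higher counts than Fos, Fosb and Batf3. Python 3.11.15, pandas 2.3.3, numpy 2.4.6, scipy 1.17.1 and, for scaling factors, edgeR 4.0.16 in R 4.3.3 were used.

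Members and lists were chosen with earlier results of these data known, and no test was run, since 1 group has no contrast. All 10 members are named, and of each other list the 3 with the highest mean CPM and any with no count, except for 2 genes whose values are not reported here. Genes of a like pattern were not sought. Motifs, tiers, promoter stretches and gene pairs were chosen after values or sequences had been seen. Alternatives were other lengths, scaling factors, detection limits, and leaving out each library. Of the lengths, 3 (RefSeq-paired transcript, unshared exons and RefSeq span) were added after the data had been seen.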

Additional observations from a re-analysis of the deposited data

How the results depend on the processing

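The shares moved with the length, and little when undetected subunits or 1 library were left out. With CPM per kb of merged exons, FOS genes held 42.7%, JUN genes 48.9% and the ATF and BATF genes 8.39% (FOS to JUN ratio 0.873). By coding length, FOS held 62.7%, JUN 28.5%, the ratio was 2.21 and the first subunit (Fosl2) held 46.9%. With CPM undivided by length, these were 63.5%, 31.5%, 2.02 and 49.4% (Fosl2), and ATF and BATF held 4.996%. On unshared exons, FOS held 51.8%, JUN 42.4%, ATF and BATF 5.81%, the ratio was 1.22 and Fosl1 led with 38.9%. With the RefSeq span for the JUN genes, FOS held 40.5%, JUN 51.6%, the ratio was 0.785 and Junb led with 42.2%. With the longest transcript, ATF and BATF held 7.65%, and the other 4 values moved by less than 1 SD. The RefSeq-paired transcript and unshared exon lengths, the RefSeq span and the rescaled count of subunits lowest in replicate 2 were chosen after seeing the data.

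TMM or relative log expression factors multiply a whole library, so they could not change a share or a FOS to JUN ratio. Leaving out undetected subunits moved no share by 1 SD. Without 1 library at a time, the FOS to JUN ratio ran from 0.847 to 0.907. A mean over 3 libraries cannot move by 1 SD when 1 is left out, so that setting could not change a mean beyond its spread. Batf3 and Fos changed places per kb without replicate 3. The number of detected subunits was 7 at 0.5 CPM, 6 at 2 CPM and 8 without replicate 2, the library in which Batf3 read 0.442 CPM. No paired analysis was possible because 1 group alone was left to describe, with no contrast to pair. At these depths Fos, Fosb and Batf3 rest on 66, 20 and 62 reads in all.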
